A study of Mus musculus with 15 samples.

Results

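Sfpq peaks that were annotated as non-coding are described here. The Sfpq peak list of P19 cells, a mouse embryonal carcinoma line, holds 29715 peaks, and 419 of them (1.41%) carry non-coding as their annotated location. This location was the sole rule by which the peaks were chosen. They fell on 126 gene symbols, and 2 peaks had no symbol. The list came from HITS-CLIP, which joins a protein to its RNA by UV light, precipitates it with an antibody and sequences the fragments that come along. Sfpq was precipitated from P19 cells with a control siRNA (3 libraries) and with an siRNA against Sfpq (siSfpq, 3 libraries), and a peak is a region where the 2 conditions differed with a dCLIP score above the authors' threshold of 7. Ago2 was precipitated from cells with a let-7a mimic, with siSfpq, and with both (3 libraries each), which brings the series to 15 libraries. The control Ago2 list stands, by its header, for cells that received neither let-7a mimic nor siSfpq but their control oligonucleotides. The methods credit it to an earlier publication, and its libraries were not analysed here. The authors merged replicates before they called peaks, so the lists hold 0 values per library and no spread between replicates can be given. Intervals cover counting error only, peaks of a gene share their transcript and are not replicates, and neither the depletion of Sfpq nor the identity of the cells can be checked from peak lists.

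Sfpq is a nuclear RNA-binding protein of the DBHS family, which also holds Nono and Pspc1. With these partners it forms paraspeckles, nuclear bodies that are built on the long non-coding RNA Neat1. Long non-coding RNAs are transcripts without a long open reading frame, and many of them, such as Malat1 in nuclear speckles, stay in the nucleus. Ago2 is the Argonaute protein that carries a miRNA to its targets, which it recognises mainly through the seed of the miRNA.

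The sequences below are those of the highest-scoring non-coding Sfpq peak of 8 long non-coding RNAs, taken from the RefSeq genome GRCm38.p6, of which mm10 is another name. They show what the protein was crosslinked to on the RNAs that the results turn on. Each is given 5′ to 3′ as DNA letters of the transcribed strand, with the words CTGT, CTGA and NTGTA (where N is any base) in capitals. These words were found by the study in its Sfpq peaks, the present ones included.
Malat1, chr19:5800665-5800779, minus strand: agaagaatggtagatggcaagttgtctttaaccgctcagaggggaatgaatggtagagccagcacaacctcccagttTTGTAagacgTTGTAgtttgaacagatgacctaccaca
Tug1, chr11:3642340-3642434, minus strand: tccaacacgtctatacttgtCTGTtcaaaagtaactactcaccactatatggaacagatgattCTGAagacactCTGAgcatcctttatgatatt
Norad, chr2:156390505-156390794, minus strand: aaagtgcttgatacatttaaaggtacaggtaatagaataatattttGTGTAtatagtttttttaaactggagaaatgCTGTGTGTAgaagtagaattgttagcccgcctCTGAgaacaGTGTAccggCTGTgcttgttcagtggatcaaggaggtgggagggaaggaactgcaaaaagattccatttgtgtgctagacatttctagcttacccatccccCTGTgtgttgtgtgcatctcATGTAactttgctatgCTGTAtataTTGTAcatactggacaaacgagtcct
Neat1, chr19:5842445-5842464, minus strand: aagatcgctcattggaacag
Meg3, chr12:109546085-109546114, plus strand: cactagtgcactgCTGTgtgcacatggaga
Rian, chr12:109646295-109646369, plus strand: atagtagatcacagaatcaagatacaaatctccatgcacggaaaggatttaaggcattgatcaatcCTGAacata
Snhg14, chr7:59970400-59970539, minus strand: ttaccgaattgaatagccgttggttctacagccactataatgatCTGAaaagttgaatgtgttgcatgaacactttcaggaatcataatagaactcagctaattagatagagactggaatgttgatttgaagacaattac
Oip5os1, chr2:119600465-119600584, plus strand: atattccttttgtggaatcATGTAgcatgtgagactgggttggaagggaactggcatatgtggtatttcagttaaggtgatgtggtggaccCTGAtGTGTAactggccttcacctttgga
Their lengths ran from 20 nt on Neat1 to 290 nt on Norad (listed as 2900097C17Rik). The Norad peak held 5 CTGT or CTGA words and 6 NTGTA words, the Malat1 peak held 0 and 2, and the Neat1 peak held neither word.

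The label was first compared with the RefSeq annotation, since a non-coding location was given by the accession of a transcript and not by the gene. Atp2a2, which encodes the calcium pump of the endoplasmic reticulum, carried the most non-coding Sfpq peaks of any gene, 26 (6.21%). RefSeq types this gene as protein-coding. In all, 240 of the 419 peaks (57.3%) lay on 66 protein-coding genes, 129 (30.8%) on 34 long non-coding RNA genes, antisense RNAs and a vault RNA included, and 44 (10.5%) on 24 pseudogenes. The remaining 6 could not be matched to a RefSeq gene, and lay on the ribosomal RNA precursor Rn45s (2), on LOC106740 (2) and on no symbol (2). The accession decided the type for 360 peaks, the symbol for 48 and a synonym for 5. Most of the peaks on protein-coding genes lay on bases that are also in an mRNA of the same strand. Of the 240, 175 touched a 3′ UTR and no other exon part (72.9%), and 38 a coding sequence alone. A further 7 touched both a 3′ UTR and a coding sequence, in the same mRNA or in different mRNAs. Of the peaks on long non-coding RNA genes, 109 of 129 (84.5%) touched no mRNA of their strand, exons and introns included. The peak lists do not tell a non-coding isoform from an mRNA that shares the exon, so for these peaks "non-coding" describes the annotated accession, and the bound molecule cannot be told.

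**Figure D1:**
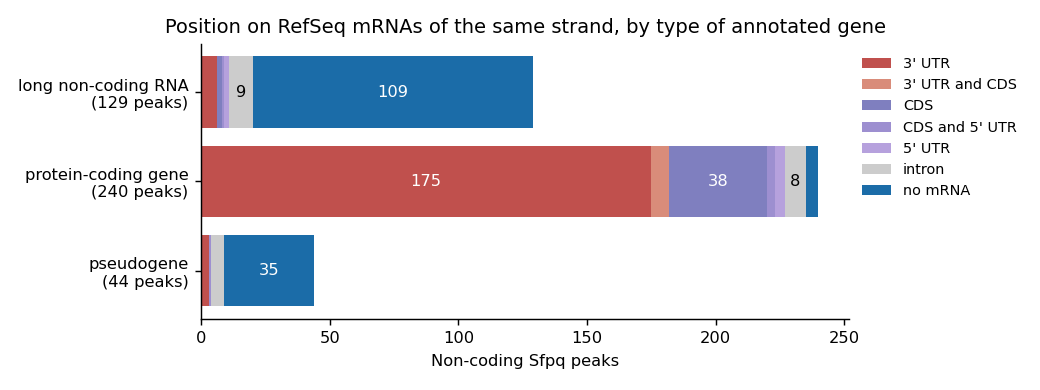
Position of the non-coding Sfpq peaks on RefSeq mRNAs of the same strand. Bars count peaks (x axis) for 3 types of annotated gene, and colours stand for the part of the mRNA, with blue for no mRNA. The 240 peaks on protein-coding genes lie mostly in 3′ UTRs (175), and 109 of the 129 peaks on long non-coding RNA genes are on no mRNA.

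The strand gave a further limit. An exon of the annotated RNA on the same strand held 333 peaks (79.5%), 2 lay outside its exons, and for 62 the accession was not in the annotation used. The other 22 peaks (5.25%), on 14 genes, lay opposite to an exon of the RNA they were assigned to. All 5 peaks of Cd247, a T-cell receptor subunit gene, lay on the minus strand, in the 3′ UTR of Pou2f1 (which encodes the transcription factor Oct1), with scores of 11, 12, 14, 15 and 37. The peak assigned to Peg3os, the antisense RNA of Peg3, lay on Peg3, an imprinted gene of a zinc finger protein. Peaks of 4930565N06Rik (3) and of the pseudogene Gm5088 (3) were opposite to their RNA as well, and no mRNA exon was annotated there. The 3 peaks of C230091D08Rik, whose accession was not in the annotation, lay on the plus strand in the 3′ UTR of Ube3a, a ubiquitin ligase gene that Snhg14 runs antisense to.

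Few genes carried most of the peaks. Atp2a2 was followed by Malat1 (21 peaks), Tug1 (20), Pafah1b1 (19), Pum2 (16), Igsf9b (15), Norad (14), Tardbp (13) and Alg11 (12). These 9 genes held 156 of the peaks (37.2%), and the 22 genes with 5 or more held 243 (58.0%). By contrast, 65 genes had 1 peak and 17 had 2. The median was 1 peak per gene. Among the 22 genes were 13 protein-coding genes, 8 long non-coding RNAs and 1 pseudogene, 6820431F20Rik.

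**Figure D2:**
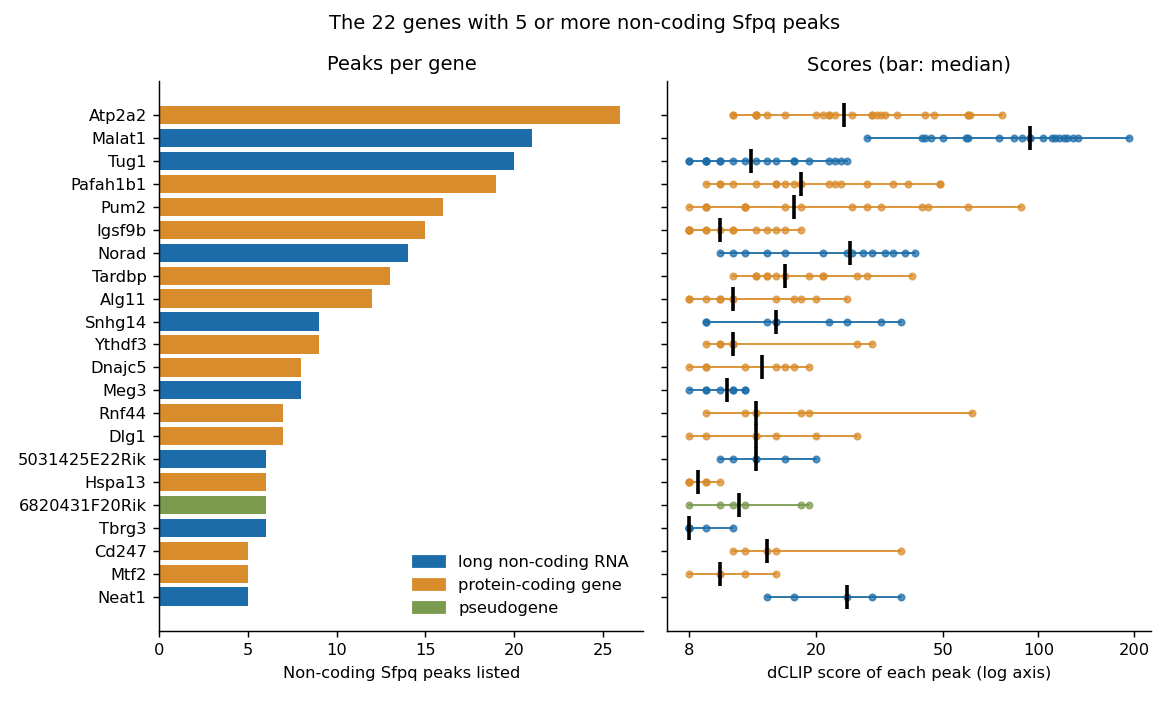
Non-coding Sfpq peaks of the 22 genes with 5 or more. Left, peaks per gene, coloured by RefSeq gene type. Right, the dCLIP score of each peak on a log axis, with a line from the lowest to the highest and a black bar at the median. Malat1 stands to the right of the other genes, with scores from 29 to 193 around a median of 94.

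Malat1, a long RNA of nuclear speckles, had the highest scores. Its RNA is a single exon of 6983 nt (chromosome 19, 5795690 to 5802672, minus strand), and its 21 peaks covered 37.0% of it. The lowest score was 29, the median 94 and the highest 193, against a median of 13 for all non-coding Sfpq peaks and of 11 for the whole Sfpq list. The highest, at 5800665 to 5800779, ranked 52 among all 29715 Sfpq peaks. Malat1 held 9 of the 10 highest-scoring non-coding peaks and 12 of the 15 highest. The peaks lay between 1203 and 6347 nt from the 5′ end, and none was listed nearer to either end. All 21 bear a single cluster number in the authors' peak names.

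Tug1 and Norad carried about as many peaks per length, with lower scores. On Tug1, a long non-coding RNA first described in the retina, the 20 peaks came to 3.90 per kb of exon, against 3.01 on Malat1, and their scores ran from 8 through a median of 12.5 to 25. A further 7 Sfpq peaks listed under Tug1, with scores from 11 to 52, were annotated to its promoter. That with the score of 11 lay on the plus strand, opposite to Tug1. That at 37 to 126 nt from the 5′ end lay within the annotated RNA. On Norad, an abundant RNA that binds Pumilio proteins, the 14 peaks came to 2.85 per kb, and their scores ran from 10 through 25.5 to 41. The ranges of Norad and Malat1 overlapped between 29 and 41, whereas each of the 20 non-coding peaks of Tug1 scored below every peak of Malat1.

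Neat1, the RNA that paraspeckles are built on, had 5 non-coding peaks, with scores of 14, 17, 25, 30 and 37. They lay between 1336 and 3035 nt from the 5′ end of the annotated RNA of 3185 nt, the short isoform. The list held 7 more Sfpq peaks of Neat1, annotated to the transcription termination site (TTS) and placed from 3071 to 4020 nt, with scores from 8 to 25. The non-coding label thus takes 5 of the 12 Sfpq peaks listed under the symbol Neat1. Peaks on a longer isoform that carry another symbol or none were not looked up. The highest Neat1 score (37) was within the range of Malat1, and the median (25) was below its lowest score.

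**Figure D3:**
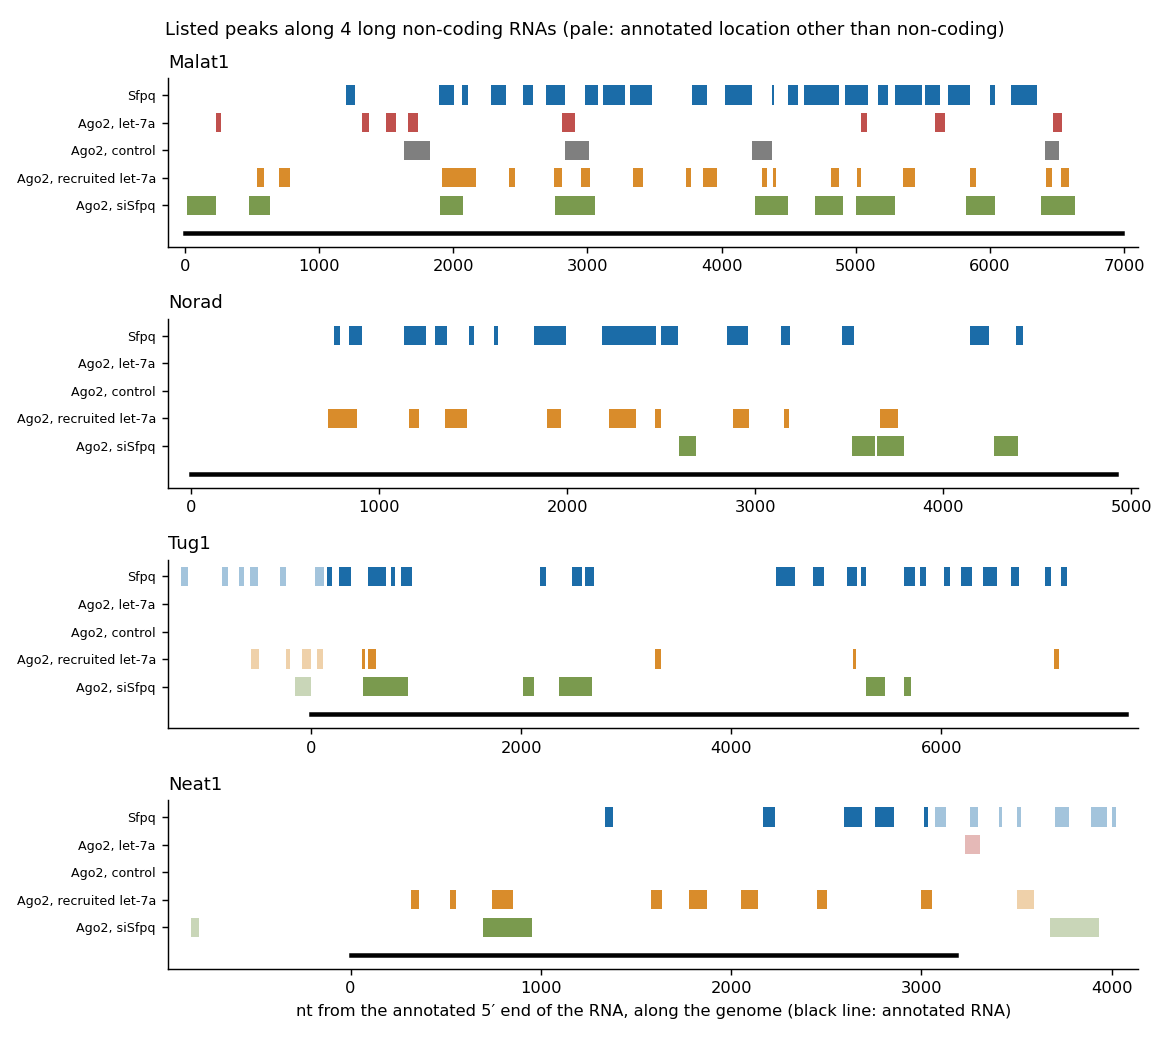
Listed peaks along Malat1, Norad, Tug1 and Neat1. The x axis gives nt from the annotated 5′ end along the genome, each row is 1 peak list, and the black line is the annotated RNA. Pale boxes are peaks annotated to another location. A Sfpq peak and a siSfpq Ago2 peak of Tug1, both on the plus strand, lie beyond the left edge and are not drawn. Sfpq peaks run from 1203 to 6347 nt on Malat1, and Ago2 peaks of the let-7a and control lists are absent from Norad and Tug1.

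Imprinted loci, where 1 parental copy is silent, formed a second group. Of 10 imprinted non-coding RNAs looked up, 4 carried non-coding Sfpq peaks, Snhg14 (9), Meg3 (8), Rian (2) and Nespas (2). Snhg14 is the long host RNA of snoRNAs in the Prader-Willi region, and its scores ran from 9 through 15 to 37. It took part in the longest run of neighbouring Sfpq peaks that involved the label, 15 peaks over 4810 nt of chromosome 7 (59973815 to 59978624), of which 2 were annotated as non-coding and the others as promoter, TTS or intergenic. Meg3, a maternally expressed RNA, scored low on each of its 8 peaks (8 to 12) and had 12 more Sfpq peaks in introns. Rian, from the same domain as Meg3, had 2 peaks of 75 and 360 nt with scores of 41 and 14, and 16 intronic ones. H19, Kcnq1ot1, Airn and Ipw occurred in the Ago2 lists and had 0 Sfpq peaks in any location.

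Of 19 nuclear and X-linked long non-coding RNAs looked up by symbol, 6 were found with non-coding Sfpq peaks, 65 in all. Besides Malat1, Tug1, Norad and Neat1, these were Oip5os1 (listed as 1700020I14Rik), with 4 peaks scoring 8 to 28, and Firre. Firre, an X-linked RNA, had 1 peak scoring 14, and 11 more Sfpq peaks in introns. Chaserr, also among the 19, is listed as 1810026B05Rik and was missed by this look-up. It had 1 non-coding Sfpq peak, with a score of 9, which also lay on an exon of the Chd2 mRNA of the same strand. The bound RNA cannot be told there. Among host RNAs of snoRNAs, Gas5 had 2 peaks (28 and 17), and Snhg1 (15) and Snhg5 (8) had 1 each. The 3 host RNAs of miRNAs looked up by name (Dleu2 and symbols of the form Mir...hg) had 0 non-coding Sfpq peaks, and hosts under other names were not counted. Rn45s, the long precursor of ribosomal RNA, had 2 peaks with scores of 124 and 89, the only peaks besides those of Malat1 among the 14 highest. Its copies are nearly identical, so these reads cannot be placed on a single copy. The vault RNA gene Vaultrc5, a short structured RNA, had 2 peaks, with scores of 44 and 13.

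Peaks on protein-coding genes lay on different parts of the mRNA. Pum2, a Pumilio protein that represses mRNAs through their 3′ UTRs, had 16 peaks, all touching its 3′ UTR, with scores of 8, 17 and 88 as the lowest, median and highest. Tardbp, which encodes the splicing regulator TDP-43, had 13 peaks (11, 16 and 40), 10 of them on the 3′ UTR. Ythdf3, a reader of N6-methyladenosine, had 9 peaks (9, 11 and 30). Hnrnpa1, a splicing factor gene, had 4 (8, 18.5 and 48), of which 3 touched the coding sequence and 0 the 3′ UTR. Pafah1b1, which encodes the dynein regulator Lis1, had 19 peaks (9, 18 and 49) that covered 44.4% of its RNA, and 17 of them touched the 3′ UTR. On Atp2a2, 23 of the 26 peaks touched the coding sequence and 3 the 3′ UTR, and the scores ran from 11 through 24.5 to 77. Sfpq's own transcript had a single non-coding peak, with a score of 12, and 26 Sfpq peaks annotated to other locations, 14 of them to introns. The other genes of this paragraph also had Sfpq peaks annotated to other locations, from 2 on Hnrnpa1 to 44 on Ythdf3.

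Pseudogenes, which are often copies of genes and mostly lack a protein product, carried smaller groups of peaks. 6820431F20Rik had 6, Atp10d, Gm9833 and Morf4l1-ps1 had 4 each, and the highest score was 36, on Morf4l1-ps1. Where a pseudogene is a copy, its reads and those of its parent gene cannot always be told apart. The position of such peaks among these 44 is therefore uncertain.

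The non-coding Sfpq peaks were 10 to 590 nt long, with a median of 60 nt (95% interval 55 to 65) and quartiles of 35 and 100 nt. The longest, 590 nt, was the peak of Cd247 on the Pou2f1 3′ UTR. The median was 70 nt for the 7985 Sfpq peaks in 3′ UTRs, 60 nt for 1294 at TTS, 50 nt for 8276 in introns and 55 nt for all Sfpq peaks. By gene type it was 65 nt on long non-coding RNAs (55 to 80), 60 nt on protein-coding genes (50 to 65) and 55 nt on pseudogenes (40 to 60), intervals that overlap. On Malat1 the median was 110 nt, and without Malat1 that of the long non-coding RNAs came to 57.5 nt. Peak edges lie on a grid of 5 nt, so medians 5 nt apart differ by a single step.

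The peaks lay close to each other. The median gap from a non-coding Sfpq peak to the nearest Sfpq peak of its strand was 130 nt (95% interval 105 to 170), against 105 nt in 3′ UTRs, 190 nt at TTS, 495 nt in introns and 330 nt over all Sfpq peaks. A run was counted where 2 or more listed Sfpq peaks of a strand followed each other with gaps of at most 100 nt. Runs held 178 of the non-coding peaks (42.5%, 95% Wilson interval 37.8 to 47.3), against 29.2% of all Sfpq peaks, 49.1% in 3′ UTRs and 20.5% in introns. The share was 48.8% on long non-coding RNAs (40.4 to 57.4), 42.1% on protein-coding genes (36.0 to 48.4) and 27.3% on pseudogenes (16.3 to 41.8). There were 75 such runs, 53 of them pairs. Malat1 (1475 nt) and Pum2 (1090 nt) each had a run of 8 peaks, Pafah1b1 had runs of 7 and 5, and Atp2a2 runs of 6 and 5. Taking each gene once, the median gap was 612.5 nt, so the short gaps rest on the genes with many peaks.

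**Figure D4:**
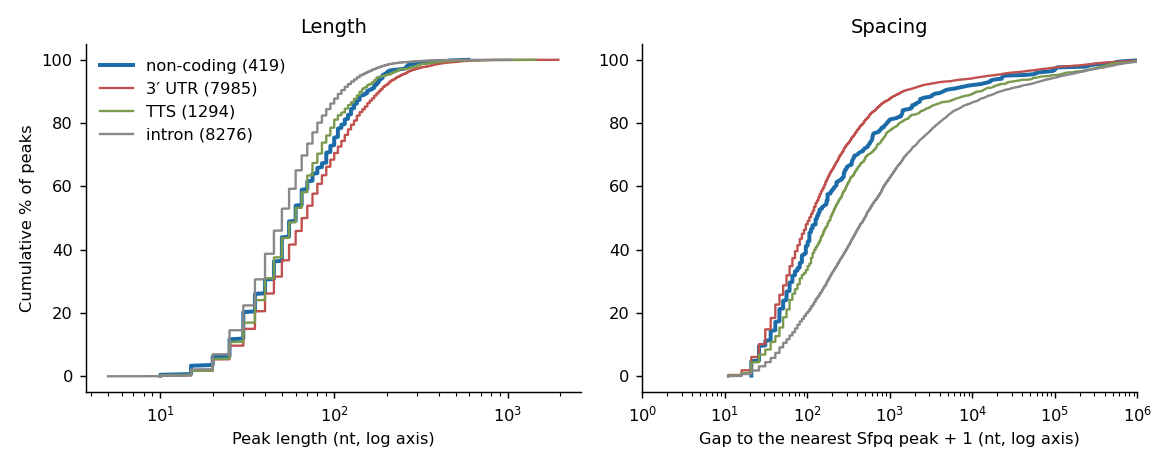
Length (left) and gap to the nearest Sfpq peak on the same strand (right, plus 1 nt) of Sfpq peaks, as cumulative percent of peaks on log axes, for 4 annotated locations with the number of peaks in parentheses. In both panels the non-coding curve lies between those of 3′ UTR and intron over most of its range, with medians of 60 nt for length and 130 nt for the gap.

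The non-coding Sfpq peaks were then set beside 4 lists of Ago2 peaks. These are the Ago2-let-7a list (let-7a mimic against control cells), the control Ago2 list, the recruited let-7a list (let-7a mimic with siSfpq against let-7a mimic alone) and the siSfpq Ago2 list. The last is read here as peaks of cells with siSfpq, as in the methods, although its header names control and siSfpq cells, so its shares may include peaks of control cells. Both let-7a lists use the libraries with the let-7a mimic alone, so they are not independent of each other. A peak counts as touched if it shares at least 1 base with an Ago2 peak of its strand.

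The Ago2-let-7a list touched 12 of the 419 non-coding Sfpq peaks (2.86%, 95% Wilson interval 1.65 to 4.94), against 2.01% of all Sfpq peaks. These were 3 peaks of Malat1, 2 of Atp2a2, and 1 each of Pum2, Rn45s, Gas5, Alg11, Dlg1, Mtf2 and C230091D08Rik. The interval includes the share over all Sfpq peaks. Control Ago2 peaks touched 6 (1.43%, 0.658 to 3.09), against 1.15% of all, of which 2 were on Pum2 and 1 each on Malat1, Rn45s, Sf1 and Rabggtb. Recruited let-7a peaks touched 72 (17.2%, 13.9 to 21.1), against 11.9% of all, and siSfpq Ago2 peaks touched 104 (24.8%, 20.9 to 29.2), against 19.9%. Among the Sfpq peaks in 3′ UTRs, the corresponding 4 shares were 3.51%, 2.65%, 20.7% and 32.7%. In all, 144 non-coding Sfpq peaks (34.4%) were touched by at least 1 list, against 25.6% of all Sfpq peaks and 40.6% of those in 3′ UTRs. Of the 144, 6 were touched by 3 or 4 lists, against 290 of the 7600 touched among all Sfpq peaks. On pseudogenes the first 2 lists touched 0 of 44 peaks, which allows a share of up to 8.03% (upper limit of the 95% Wilson interval).

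Within 500 nt, the Ago2-let-7a list had a peak near 49 non-coding Sfpq peaks (11.7%, 8.96 to 15.1), against 8.46% of all Sfpq peaks. The control list was near 31 (7.40%, 5.26 to 10.3), against 3.33%. For the recruited let-7a list the count was 181 (43.2%, 38.5 to 48.0), against 29.7%, and for the siSfpq list 191 (45.6%, 40.9 to 50.4), against 36.0%. Malat1 gave 18 of the 49 and 16 of the 31. Without it the first 2 shares were 7.79% (5.54 to 10.8) and 3.77% (2.30 to 6.12), near those of all Sfpq peaks, and the other 2 were 40.2% and 43.0%.

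**Figure D5:**
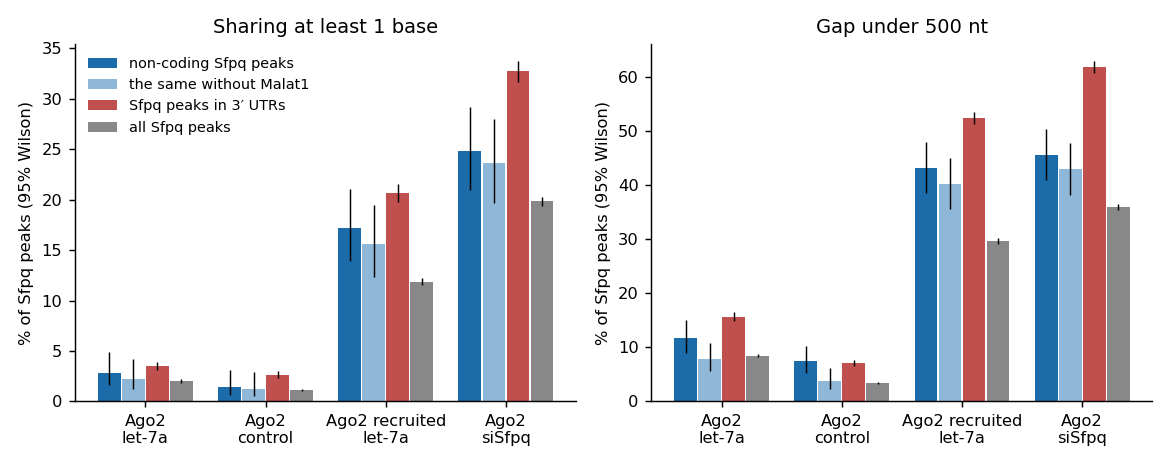
Share of Sfpq peaks that share at least 1 base with an Ago2 peak (left) or have one at a gap under 500 nt (right), for 4 Ago2 lists. Bars show percent of peaks with 95% Wilson intervals for the 419 non-coding Sfpq peaks, the same without Malat1, the 7985 in 3′ UTRs and all 29715. The bar for the let-7a list within 500 nt drops from 11.7% to 7.79% without Malat1.

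Malat1 carried Ago2 peaks in every list, 8 with the let-7a mimic, 4 in control cells, 17 recruited and 9 with siSfpq. All 21 of its Sfpq peaks lay within 500 nt of a recruited let-7a peak, and 10 were touched by one. The 3 that an Ago2-let-7a peak touched had scores of 94, 133 and 110, and are printed in the order of their coordinates because a listed Ago2-let-7a peak shares bases with each, again with the words CTGT, CTGA and NTGTA in capitals.
Malat1, chr19:5797045-5797154, minus strand: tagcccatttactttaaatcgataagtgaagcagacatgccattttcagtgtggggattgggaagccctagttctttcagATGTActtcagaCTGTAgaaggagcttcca
Malat1, chr19:5797580-5797754, minus strand: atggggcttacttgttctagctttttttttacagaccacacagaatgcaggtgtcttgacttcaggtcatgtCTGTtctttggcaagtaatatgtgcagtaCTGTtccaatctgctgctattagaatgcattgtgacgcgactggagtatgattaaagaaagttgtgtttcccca
Malat1, chr19:5799840-5799979, minus strand: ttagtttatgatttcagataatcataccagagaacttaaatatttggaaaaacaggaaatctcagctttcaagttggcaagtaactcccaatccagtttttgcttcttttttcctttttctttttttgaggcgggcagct
A control Ago2 peak touched a different Malat1 peak, at 5799590 to 5799689 (score 123). Of the 8 Ago2-let-7a peaks of Malat1, 2 were dismissed, which is what the authors call a peak that was reduced on Sfpq knockdown, and both belong to the class closer than 500 nt to an Sfpq peak. They lay at 1498 to 1577 and 1663 to 1737 nt from the 5′ end, between the first and the second Sfpq peak. Neither touched an Sfpq peak, at gaps of 225 and 155 nt.

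By gene symbol, 70 of the 126 genes with non-coding Sfpq peaks (55.6%, 46.8 to 63.9) also carried a non-coding Ago2 peak in at least 1 of the 4 lists, 13 in the Ago2-let-7a list, 7 in the control list, 50 in the recruited let-7a list and 50 in the siSfpq list. Over all 4949 genes with a Sfpq peak the share was 1.94%, but a gene can have a non-coding peak only where a non-coding transcript is annotated. Counting Ago2 peaks in any location, 94 of the 126 genes (74.6%) carried one, against 81.4% of all genes with a Sfpq peak. Only Malat1, Gas5, Rn45s, Atp2a2, Pum2 and Sf1 carried a non-coding Ago2 peak in each of the 4 lists. Seen from the Ago2 side, genes with non-coding Sfpq peaks made up 41.9% of the 31 genes with a non-coding Ago2-let-7a peak. They made up 63.6% of the 11 with a control one, 63.3% of the 79 with a recruited one and 34.7% of the 144 with a siSfpq one. Norad had 9 recruited let-7a peaks and 4 siSfpq Ago2 peaks, and 0 in the other 2 lists. Tug1 had 5 recruited and 5 siSfpq peaks annotated as non-coding, and also 0 in the others. On Neat1, 8 recruited peaks and 1 siSfpq peak were non-coding, and 1 of its 5 non-coding Sfpq peaks was touched by a recruited one. The control list held 0 peaks of Neat1. Its 1 Ago2-let-7a peak was annotated to the TTS and lay 195 nt from a non-coding Sfpq peak. That peak was dismissed, in the class close to Sfpq. Rian had 5 recruited peaks, which touched both of its Sfpq peaks.

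Rn45s held the most non-coding Ago2-let-7a peaks, 12, and 12 recruited ones, with the limit on its copies given above. Atp2a2 had 15 recruited let-7a peaks, which touched 13 of its 26 Sfpq peaks. Gas5, a snoRNA host that accumulates in growth arrest, had 1, 1, 2 and 5 non-coding peaks in the let-7a, control, recruited and siSfpq lists. Its Sfpq peak at chromosome 1, 161035430 to 161035549, was touched by an Ago2-let-7a peak and by a siSfpq Ago2 peak. The most complete overlap with the Ago2-let-7a list was on Pum2, at chromosome 12, 8749705 to 8749809, with a Jaccard index (shared over joint length) of 0.905, followed by Dlg1 (0.706), which encodes a scaffold protein of cell junctions.

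Of the 52 non-coding Ago2-let-7a peaks, 27 were dismissed (51.9%), against 80.2% of all 4202 Ago2-let-7a peaks. A non-coding Sfpq peak lay closer than 500 nt to 29 Ago2-let-7a peaks, of which 14 were dismissed (48.3%), against 64.0% of the 1283 within 500 nt of any Sfpq peak. Malat1 and Rn45s weighed on both shares. Without these genes, 23 of 32 non-coding Ago2-let-7a peaks were dismissed (71.9%, 54.6 to 84.4), and 10 of 16 near a non-coding Sfpq peak (62.5%, 38.6 to 81.5). In the control list, 4 of 16 non-coding peaks were dismissed, against 30.4% of all 2065. Sf1, which encodes a branch point binding protein, and Atp2a2 each had 2 non-coding Ago2-let-7a peaks, all 4 dismissed in the class close to Sfpq. Rn45s had 2 dismissed of 12. A kept peak is not shown to be unchanged, and these shares were not tested.

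The mature let-7a is printed with its seed, bases 2 to 8, in capitals, because the mimic could bring Ago2 to matching sites.
mmu-let-7a-5p: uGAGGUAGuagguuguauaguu
The match to 6 bases of the seed, UACCUC, was present in 6 of the 419 non-coding Sfpq peaks (1.43%), in 6 equally long windows placed 500 nt downstream (1.43%) and in 1.19% of all Sfpq peaks. The 6 peaks lay on Tug1 (2), Atp2a2, Alg11, Peg3os and Cd247, and that of Atp2a2, at chromosome 5, 122456635 to 122456669, was the only one touched by an Ago2-let-7a peak. No peak of Malat1 held the match. Of the 52 non-coding Ago2-let-7a peaks 3 held it (5.77%), and of the 29 within 500 nt of a non-coding Sfpq peak 1 did (3.45%), against 2.19% of the whole list. These counts are small, and the difference was not tested.

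The words of the study were counted on the transcribed strand alone, and a CUGUA counts for both. CUGU or CUGA occurred 1.42 times per 100 nt of non-coding Sfpq peak and 1.14 times in windows shifted 500 nt downstream, a ratio of 1.25 (95% interval 1.09 to 1.43), against 1.29 for all Sfpq peaks. At least 1 such word was in 58.7% of the peaks, in 51.8% of the windows and in 59.7% of all Sfpq peaks. For NUGUA the ratio was 1.15 (0.957 to 1.38), an interval that includes 1, against 1.21 for all Sfpq peaks and 1.34 for those in 3′ UTRs, and the word was in 36.8% of the peaks and 30.5% of the windows. On protein-coding genes the ratios were 1.32 (1.11 to 1.58) and 1.28 (1.01 to 1.62), and on long non-coding RNAs 1.14 (0.893 to 1.46) and 0.974 (0.707 to 1.34). These ratios depend on the windows. With windows 500 nt upstream, the ratio of CUGU or CUGA was 1.21 on protein-coding genes and 1.29 on long non-coding RNAs, the reverse order. The NUGUA interval on protein-coding genes included 1 with windows 500 nt upstream (0.972 to 1.55) and 200 nt downstream (0.887 to 1.40). Malat1, with the highest scores, held CUGU or CUGA 0.658 times per 100 nt of peak and 0.890 times in its windows, a ratio of 0.739 (0.395 to 1.38). The difference between gene types was not tested, and the windows of a densely bound RNA fall partly on its other peaks. Base composition was alike in peaks and windows, with 31.3% and 31.6% U and 22.6% and 21.7% G.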

How the data were processed

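The 15 samples fall by their labels into 5 groups of 3: 3 of Ago2 CLIP (let-7a mimic, siSfpq, or the pair combined) and 2 of Sfpq CLIP (control or siSfpq cells). Per the submitters' processing notes and the study's methods, reads were trimmed with cutadapt and mapped by STAR, then Bowtie2 for the rest, to the mm10 genome. Tool versions were not given in the sources used here. Replicates were merged by the authors, who deposited 11 peak lists. Their coordinates are on mm10 and are printed as deposited. The deposited score is a dCLIP score per peak for the Sfpq, Ago2-let-7a and recruited let-7a lists (threshold 7, lowest listed Sfpq score 8), from merged replicates of 2 conditions. For the control and siSfpq Ago2 lists the authors deposited read counts made by pyicoclip, and the lowest listed is 10 reads. Scores and read counts were not compared between lists. The depth of the libraries is not in these lists and was not used.

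Gene types, exons and sequences came from RefSeq GRCm38.p6. Length is end minus start plus 1, a gap is the number of bases between edges, and Ago2 peaks without a strand (136 control and 102 siSfpq) counted on either. Shares have 95% Wilson intervals, medians intervals from binomial order statistics, and word ratios intervals from Poisson counts. As no value per library exists, no test was run and no p-value is given. Named genes are the 10 with most non-coding Sfpq peaks, those of the 10 highest scores, those that also carry a non-coding peak in the control, let-7a or recruited list or are touched by any Ago2 list, and members of the gene lists with such a peak (69 genes, not all reported), while a few others were named after their values were seen. The peaks, gene lists and named genes were chosen with earlier results of these data known. Python 3.11.15, NumPy 2.4.6, pandas 2.3.3 and pysam 0.24.0 were used, and the interval, run and word functions were tested on simulated data.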

Additional observations from a re-analysis of the deposited data

How the results depend on the processing

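Of 66 values of 16 results recomputed under an alternative, 46 stayed within the interval of the value given in the report or within 1.5 times a count. Of the 66, 20 came from alternatives chosen after seeing the data, without Malat1 (for dismissed shares also without Rn45s) or with peaks on an exon of their own RNA and strand alone. With a score of at least 15, 168 peaks on 50 genes were left, the gene with most peaks (then Malat1) held 12.5%, the median length was 70 nt, the median gap 172.5 nt and the share in runs 37.5%, since neighbours with lower scores were left out too. With only genes typed here as long non-coding RNA or as pseudogene, 173 peaks on 58 genes were left, Malat1 held 12.1%, and 28 genes also carried a non-coding Ago2 peak. Taking 1 value per gene gave a median length of 50 nt and a median gap of 612.5 nt. The share in runs was 23.9% with gaps of at most 50 nt, 58.9% with 200 nt and 60.1% by the cluster number in the peak names. Ago2-let-7a peaks lay near 8.59% within 250 nt, 17.4% within 1000 nt, and 7.79% without Malat1. Without Malat1 and Rn45s, 71.9% of the non-coding Ago2-let-7a peaks were dismissed. With a Jaccard index of at least 0.1 the siSfpq Ago2 list touched 19.6%. No paired analysis was possible because the lists were called on merged replicates, and for the same reason no replicate could be left out.

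A peak list without read depth gives no limit on what was missed, so the absence of a peak does not show that an RNA was not bound.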

Other observations

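Some genes carried Ago2 peaks annotated as non-coding and no Sfpq peak in any location. H19, an imprinted RNA that is abundant in embryonic tissue, had 3 recruited let-7a peaks, with scores of 56, 19 and 13, and 2 siSfpq Ago2 peaks. The nearest Sfpq peak of the same strand lay 187800 nt from the nearest of these. E030024N20Rik had 2 recruited peaks with a highest score of 60, and Sema6c, which encodes a semaphorin, had 3 siSfpq Ago2 peaks annotated as non-coding, with up to 72 reads. Mir9-3hg, a host RNA of a miR-9 gene, had 1 non-coding peak in the control Ago2 list (10 reads) and another at the same place in the siSfpq list (24 reads). By contrast, Cnot2, a subunit gene of the CCR4-NOT deadenylase, had 2 non-coding siSfpq Ago2 peaks and 26 Sfpq peaks, none of them annotated as non-coding. These genes were chosen after their values were seen.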
